A study of Mus musculus with 12 samples.

Results

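A set of 10 nuclear genes for chaperones and proteases that work inside mitochondria were followed through the 4 groups of the study: Hspd1, Hspe1, Hspa9, Grpel1, Trap1, Lonp1, Clpp, Clpx, Afg3l2 and Htra2. They were taken as the listed genes of the mitochondrial unfolded protein response by matching the Entrez IDs of the count files to mouse symbols. They are 10 of 27179 genes listed in each library, and 10 of 10 were among the 14185 genes that passed the filter on low counts.

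The cells were primary hippocampal neurons of newborn mice, C57BL/6 by the sample labels while the study's methods name FVB mice as well, cultured for 17 or 18 days on Transwell inserts. The porous membrane of the insert holds the somas on its upper face and lets neurites, the axons and dendrites, grow through, so that each compartment can be harvested apart. MG132 neurons received the proteasome inhibitor MG132 at 10 μM for 7 h and Ctrl neurons its solvent DMSO. Somas and neurites of each treatment gave 3 libraries, 12 in all. No genotype differed between groups, and RNA was captured by its poly(A) tail.

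Nearly all mitochondrial proteins are made in the cytosol and imported unfolded, so the matrix keeps chaperones that fold them on arrival and proteases that remove those that fail. When misfolded proteins build up in mitochondria, cells raise the transcription of genes of both kinds, a program called the mitochondrial unfolded protein response, for which ATF5, ATF4 and CHOP have been described as regulators in mammals. HSP60 and HSP10, the barrel and lid of the chaperonin, and the protease ClpP are among its best known members. Cytosolic protein damage calls instead on heat shock factors, which bind inverted repeats of GAA in promoters.

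The genes of the chaperonin pair, Hspd1 for HSP60 and Hspe1 for HSP10, lie head to head on mouse chromosome 1 (GRCm38.p6). Hspd1 runs on the minus strand from 55077833 to 55088243 and Hspe1 on the plus strand from 55088148 to 55091317. The stretch between the RefSeq start site of Hspd1 at 55087932 and that of Hspe1 at 55088148 is shown because both genes, which had the largest MG132 responses of the 10, share it. A further start site of Hspd1 is annotated at 55088243, inside Hspe1. The capitals mark 4 alternating units of TTC and GAA, 18 bases that end 72 bases before the Hspe1 start and begin 127 bases from the Hspd1 start:
chr1:55087933-55088147, plus strand: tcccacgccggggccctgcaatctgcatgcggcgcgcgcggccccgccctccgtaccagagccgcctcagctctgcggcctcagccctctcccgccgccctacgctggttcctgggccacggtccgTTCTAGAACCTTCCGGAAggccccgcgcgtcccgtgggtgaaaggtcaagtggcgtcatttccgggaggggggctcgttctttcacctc

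Promoter windows of 300 bases were in the RefSeq table for 7 of the 10 genes. Neighbouring units of a heat shock element, GAANNTTC or TTCNNGAA on either strand, were found in windows of 3 members, Hspd1, Hspe1 and Clpp, against 15.1% of all 32851 windows. With a further unit at the same spacing the motif remained in windows of 2 members, Hspd1 and Hspe1, which is the single stretch above, against 0.603% of all windows. The Clpp match lay 33 bases past the annotated start site. The composite element TGATGNAA, of the type bound by ATF4 and CHOP, was in 0 of the 7 and in 3.97% of all windows. TGCAAT, the core described for CHOP, was in windows of 2 members, again Hspd1 and Hspe1 in their shared stretch, and in 8.4% of all windows. CCAAT was found for 3 members and in 37.4% of windows. TGANNNNGC, a loose pattern for the antioxidant response element, was found for 6 members and in 41.3% of windows. These are matches of letters and were not tested for binding.

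Libraries held 4247610 to 22166347 counts, with a median of 7841750. The 10 most abundant genes took 29.4% to 62.6% of a library, and TMM scaling factors, which correct for this, were 1.18 to 1.44 in somas and 0.567 to 0.999 in neurites. The labelled cell type was checked by summed markers in CPM, counts scaled to a common library size with TMM. The 10 neuronal markers summed to 1100 to 3950 CPM in every group. The 7 astrocyte markers summed to 3380 to 4590 in Ctrl somas, 17600 to 23800 in Ctrl neurites, 1890 to 2660 in MG132 somas and 8150 to 18900 in MG132 neurites, so both fractions also held glial RNA. Most of the sum in neurites was Gfap, with a mean of 17790 CPM in Ctrl neurites and 1967 in Ctrl somas. Of the 7 markers, 2 were called higher and 1 lower in Ctrl neurites than in Ctrl somas, where 6.3% and 1.3% of all genes were. The 6 microglial markers summed to 505 to 1000 CPM in Ctrl and 76.7 to 217 after MG132. Oligodendrocyte lineage markers, 7 genes, ranged from 493 to 6330 CPM in somas and from 2830 to 21900 in neurites. Fibroblast markers stayed at 169 CPM or less and endothelial markers at 4.96 or less, with Ctrl neurites listing 2 of the 4 endothelial markers at 0 in all libraries. In such bulk samples, fewer cells of a type and less RNA per cell cannot be told apart.

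After MG132, mRNAs of 4 chaperones (Hspd1, Hspe1, Hspa9 and Grpel1) and of 1 protease, Afg3l2, were higher in both compartments. Lonp1 was called in somas only and Clpx in neurites only. With the replicate number as a block in the model, both were called in both compartments. That made 7 of 10 higher in each, against 14.1% of all genes in somas and 13.6% in neurites. Without the block, 6 of the 10 genes were higher in somas at an adjusted p under 0.01, where 9.52% of all tested genes were. In somas 0 were lower, where 5.72% were. The median log2 fold change of the 10 was 1.04, beside -0.07 over all tested genes. In neurites 6 of 10 were higher, against 9.76% of all genes, and 0 were lower, against 5.67%, with a median of 1.25 beside -0.16. A log2 fold change above 1.7 was passed by 2 members in somas, Hspd1 and Hspe1, where 2.11% of all genes passed it. It was passed by 3 in neurites, where Hspa9 joined them and the share of all genes was 2.44%. The study's figure captions give its limit as more than 1.7 fold. Read as a linear fold, that limit was passed by all 6 called members in each compartment. The lowest folds of these members were 1.80 in somas and 1.83 in neurites. The share of all genes past the linear limit was not counted, so this count shows nothing particular to the members. Each p came from an edgeR quasi-likelihood test on 3 libraries per group and was corrected by Benjamini-Hochberg across the whole set of tested genes.

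**Figure D1:**
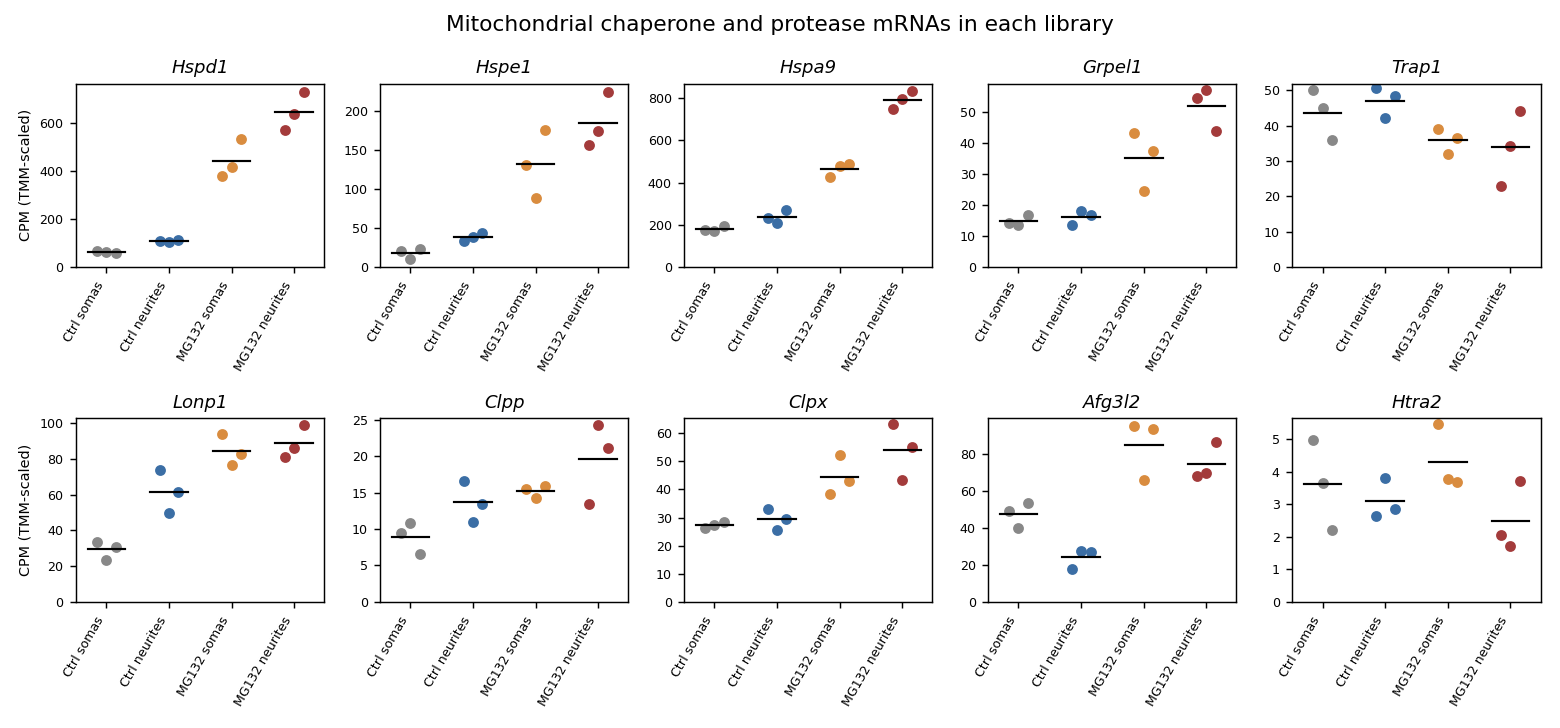
Level of each of the 10 mRNAs in every library, as TMM-scaled CPM on linear axes that start at 0, with 3 points per group and a bar at the mean. MG132 groups stand above Ctrl groups for Hspd1, Hspe1, Hspa9 and Grpel1, while Trap1 and Htra2 overlap.

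HSP60 encloses unfolded proteins in its barrel so that they can fold, and Hspd1 gave the clearest response of the 10. Its level was 66.4, 63.0 and 59.6 CPM in Ctrl somas and 379.5, 416.2 and 535.1 CPM in MG132 somas. In neurites it was 109.5, 104.2 and 112.7 CPM in Ctrl and 569.6, 635.9 and 730.8 CPM after MG132. Each MG132 library stood above each Ctrl library by a wide margin. The log2 fold change was 2.82 ± 0.18 (SE) in somas, a 7.04-fold rise with a 95% interval of 5.40 to 9.18 (edgeR, adjusted p = 2.37e-07). In neurites it was 2.57 ± 0.18, or 5.93-fold (edgeR, adjusted p = 4.95e-07).

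HSP10 closes that barrel, and Hspe1 moved much like its partner, from lower counts. Ctrl somas had 20.4, 10.8 and 22.6 CPM and MG132 somas 130.9, 89.0 and 176.8 CPM. Ctrl neurites had 33.9, 38.4 and 43.7 CPM and MG132 neurites 157.2, 174.6 and 225.1 CPM. Replicate 2 was the lowest library in both soma groups, yet neither compartment showed overlap. The rise was 7.38-fold in somas (log2 2.88 ± 0.29, edgeR adjusted p = 1.33e-05) and 4.79-fold in neurites (log2 2.26 ± 0.29, adjusted p = 5.16e-05). Reads of this pair carry a counting limit, since the annotated exons of the genes overlap by 112 bases on opposite strands. Of all 75-base windows of their longest transcripts, 33.7% for Hspd1 and 29.1% for Hspe1 also occur in transcripts of other genes, mostly pseudogenes.

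Mortalin, the mitochondrial HSP70, pulls proteins through the import channel and folds them, and its gene Hspa9 (chromosome 18, 34937414 to 34954351, minus strand) was the most abundant of the 10 per kilobase in Ctrl. Levels were 176.7, 171.7 and 192.3 CPM in Ctrl somas and 426.6, 476.9 and 487.6 CPM in MG132 somas. In neurites they were 234.4, 208.9 and 270.6 CPM in Ctrl and 746.4, 794.5 and 835.4 CPM after MG132. The groups were separate in both compartments, with the highest levels in MG132 neurites. Hspa9 rose 2.57-fold in somas (log2 1.36 ± 0.16, edgeR adjusted p = 3.59e-05) and 3.33-fold in neurites (log2 1.74 ± 0.16, adjusted p = 3.76e-06).

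GRPEL1 is the nucleotide exchange factor that resets mortalin after each cycle. Grpel1 (chromosome 5, 36465185 to 36474077, plus strand) read 14.2, 13.6 and 16.9 CPM in Ctrl somas and 43.4, 24.6 and 37.3 CPM in MG132 somas. Ctrl neurites gave 13.5, 18.1 and 16.8 CPM and MG132 neurites 54.5, 57.0 and 44.0 CPM. MG132 libraries again lay above all Ctrl libraries. The rise was 2.37-fold in somas (log2 1.24 ± 0.24, edgeR adjusted p = 0.00135) and 3.20-fold in neurites (log2 1.68 ± 0.24, adjusted p = 0.000145). Its exons overlap those of Tada2b by 411 bases on the other strand.

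TRAP1 is the HSP90 of the mitochondrial matrix, and its gene did not follow the other chaperones. Trap1 (chromosome 16, 4039971 to 4077840, minus strand) read 50.1, 45.1 and 35.9 CPM in Ctrl somas and 39.1, 31.9 and 36.7 CPM in MG132 somas. In neurites the values were 50.5, 42.1 and 48.4 CPM in Ctrl and 23.0, 34.4 and 44.2 CPM after MG132. Groups overlapped in both compartments. The log2 fold change was -0.28 in somas with a 95% interval of -0.77 to 0.20 (edgeR, adjusted p = 0.389) and -0.47 in neurites with an interval of -0.96 to 0.03 (adjusted p = 0.149). A rise of the size seen for Hspd1, Hspe1, Hspa9 or Grpel1 lay outside both intervals.

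Among the proteases, LONP1 degrades damaged proteins in the matrix and binds mitochondrial DNA. Lonp1 (chromosome 17, 56614297 to 56626903, minus strand) was at 33.6, 23.6 and 30.8 CPM in Ctrl somas and at 94.0, 76.3 and 82.6 CPM in MG132 somas. Ctrl neurites already held 73.6, 49.7 and 61.7 CPM, and MG132 neurites 81.2, 86.4 and 98.9 CPM. Ctrl somas were thus the low group, and the other groups were closer to each other. Lonp1 rose 2.87-fold in somas (log2 1.52 ± 0.19, edgeR adjusted p = 7.38e-05). In neurites its fold was 1.45 (log2 0.53 ± 0.19, adjusted p = 0.0517), with 3 of 3 same-numbered pairs higher, and it passed the threshold with the replicate number as a block (log2 0.55, adjusted p = 0.00902).

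ClpXP is the other matrix protease, in which the CLPX ring unfolds proteins and feeds them to the CLPP chamber. Clpx (chromosome 9, 65294251 to 65330658, plus strand) read 26.1, 27.4 and 28.6 CPM in Ctrl somas and 38.4, 52.4 and 42.9 CPM in MG132 somas. In neurites it read 33.1, 25.7 and 29.6 CPM in Ctrl and 63.4, 43.5 and 55.2 CPM after MG132. No library overlapped between treatments in either compartment. Clpx rose 1.83-fold in neurites (log2 0.87 ± 0.20, edgeR adjusted p = 0.005). In somas its fold was 1.63 (log2 0.70 ± 0.20, adjusted p = 0.0174), which passed with the block (log2 0.70, adjusted p = 0.00689). The neurites call was lost without MG132 neurites replicate 1 or Ctrl neurites replicate 2, with an adjusted p of up to 0.0242, and on total counts, where the adjusted p was 0.122.

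Clpp, for the chamber itself (chromosome 17, 56990264 to 56996371, plus strand), was a low mRNA at 6.62 to 10.9 CPM in Ctrl somas, 14.3 to 15.9 in MG132 somas, 10.96 to 16.7 in Ctrl neurites and 13.5 to 24.3 in MG132 neurites. The soma groups did not overlap and the neurite groups did. Neither difference passed the test, with a log2 fold change of 0.77 in somas (interval 0.15 to 1.38, edgeR adjusted p = 0.0618) and 0.54 in neurites (interval -0.08 to 1.16, adjusted p = 0.185).

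AFG3L2 forms the m-AAA protease of the inner membrane, alone or with paraplegin. Afg3l2 (chromosome 18, 67404764 to 67449192, minus strand) read 49.0, 39.8 and 53.6 CPM in Ctrl somas and 95.6, 66.0 and 93.7 CPM in MG132 somas. Ctrl neurites held 18.0, 27.7 and 26.9 CPM and MG132 neurites 68.0, 69.7 and 86.8 CPM. Ctrl neurites were the low group here, the reverse of Lonp1. Afg3l2 rose 3.07-fold in neurites (log2 1.62 ± 0.22, edgeR adjusted p = 9.29e-05) and 1.80-fold in somas (log2 0.84 ± 0.21, adjusted p = 0.00854). The soma call was close to the threshold and was lost in 5 of 6 fits that left out a library (adjusted p up to 0.0401), all except the one without MG132 somas replicate 2.

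HTRA2 is a serine protease of the space between the membranes. Htra2 (chromosome 6, 83051266 to 83054571, minus strand) was the least abundant of the 10, at 1.72 to 5.46 CPM and as few as 9 counts in a library. Its log2 fold change was 0.25 in somas (interval -0.85 to 1.35, edgeR adjusted p = 0.765) and -0.34 in neurites (interval -1.50 to 0.81, adjusted p = 0.676). At this depth a 1.5-fold change in either direction was not detectable. Its exons overlap those of Aup1 by 753 and of Loxl3 by 535 bases on the other strand. Whether this overlap lowered its counts was not tested.

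**Figure D2:**
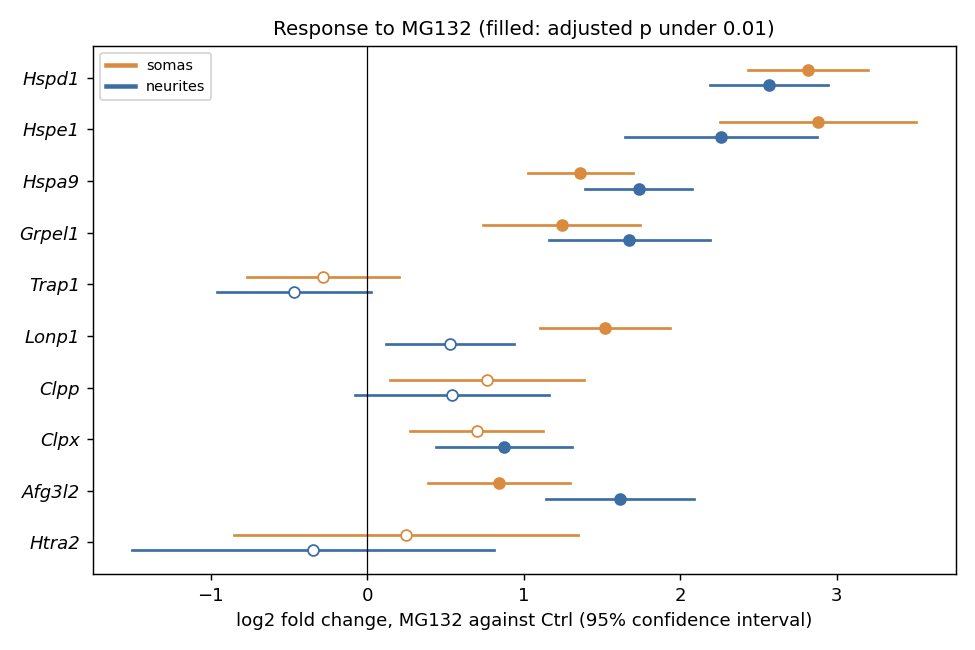
Log2 fold change of each gene after MG132 in somas and neurites, with 95% confidence intervals from edgeR and filled points at an adjusted p under 0.01. Hspd1 and Hspe1 lie highest in both compartments, Lonp1 sits further right in somas (1.52 against 0.53) and Afg3l2 further right in neurites (1.62 against 0.84).

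Glial RNA moved with the MG132 comparison too. Of the 7 astrocyte markers, 4 were lower after MG132 in somas (among them Aqp4, log2 -2.36) and 2 in neurites. Of the 6 microglial markers, 3 were lower in somas and 4 in neurites, with Cx3cr1 at -5.77 and -5.88. Oligodendrocyte lineage markers fell for 2 of 7 genes in somas and 3 in neurites. Fibroblast markers fell for 2 of 4 in somas and 0 in neurites, where their median was -1.37. Of all genes 5.72% were lower in somas and 5.67% in neurites. None of the 10 neuronal markers was called in either compartment. The part of glial RNA in the responses above was not tested.

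Whether the response differed between compartments was tested as the difference of the log2 fold changes, neurites minus somas. No gene among all 14185 passed it in edgeR without the block, so 0% were called, and 0 of the 10 members passed with or without it. With the replicate block edgeR called 14 genes higher and 7 lower, and DESeq2 called 21 and 8. Without the block, 474 genes were higher and 526 lower at an unadjusted p under 0.05. Lonp1 had the largest difference of the 10, at -0.99 ± 0.27, with 3 of 3 same-numbered pairs lower, an unadjusted p of 0.00231 and an adjusted p of 0.449. With the replicate block its adjusted p was 0.0482, still above 0.01. Afg3l2 had the opposite sign, 0.77 ± 0.30, with 3 of 3 pairs higher (edgeR, adjusted p = 0.618). For Hspd1 the difference was -0.25, with an interval from -0.76 to 0.26.

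The compartments themselves differed for fewer members. In Ctrl neurons 2 of the 10 mRNAs were higher in neurites than in somas, where 6.3% of all genes were, and 1 was lower, where 1.3% were. Lonp1 was 2.09-fold higher in neurites (log2 1.07 ± 0.19, edgeR adjusted p = 0.00145) and Hspd1 1.73-fold higher (log2 0.79 ± 0.17, adjusted p = 0.00542). Hspe1 leaned the same way with 3 of 3 pairs higher (log2 1.11 ± 0.28, adjusted p = 0.0153), and it passed with the block (log2 1.15, adjusted p = 9e-05). It also passed in DESeq2 (log2 1.07, adjusted p = 0.00246) and in edgeR without the count filter (log2 1.03, adjusted p = 0.00216). Afg3l2 was lower in neurites, at 0.514 of the soma level (log2 -0.96 ± 0.22, adjusted p = 0.00741). All 6 fits that left out a library lost the Hspd1 call, 5 lost the Afg3l2 call and 3 the Lonp1 call, with an adjusted p of up to 0.0356, 0.0306 and 0.02. The libraries whose loss ended the Lonp1 call were Ctrl somas replicates 2 and 3 and Ctrl neurites replicate 3. The Afg3l2 call remained only without Ctrl somas replicate 2.

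After MG132 the ratio of neurites to somas passed the test for 1 of the 10, Hspa9, with 7.2% of all genes higher, and for 0 lower, with 2.16% of all genes. Hspa9 was 1.71-fold higher in neurites (log2 0.77 ± 0.16, edgeR adjusted p = 0.00312), and the call was lost, with an adjusted p of up to 0.0125, without MG132 somas replicate 1, MG132 somas replicate 2 or MG132 neurites replicate 2. Hspd1 was at log2 0.54 (adjusted p = 0.0366) and passed with the block (log2 0.54, adjusted p = 0.00489), which takes the count from 1 to 2. The block called 11.1% of all genes higher there. Lonp1, higher in neurites before, was at 0.07 with an interval of -0.33 to 0.48. Afg3l2 was at -0.19 with an interval of -0.64 to 0.26.

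These ratios depend on scaling. The median of all genes, neurites against somas, was -0.04 in Ctrl and -0.08 after MG132 with TMM factors, and -0.70 and -0.86 on total counts. On total counts the calls of Hspd1 and Lonp1 in Ctrl were lost, and Hspa9 after MG132 turned to -0.02. A change of scaling shifts all genes of a library alike. Values relative to the median of all genes therefore hardly move by construction, and they are no check on the calls. Hspd1 in Ctrl stood 0.83 above that median with TMM and 0.81 on total counts, Lonp1 1.10 and 1.07, and Hspa9 after MG132 0.85 and 0.84. Afg3l2 in Ctrl stood at -0.92 and -0.89.

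**Figure D3:**
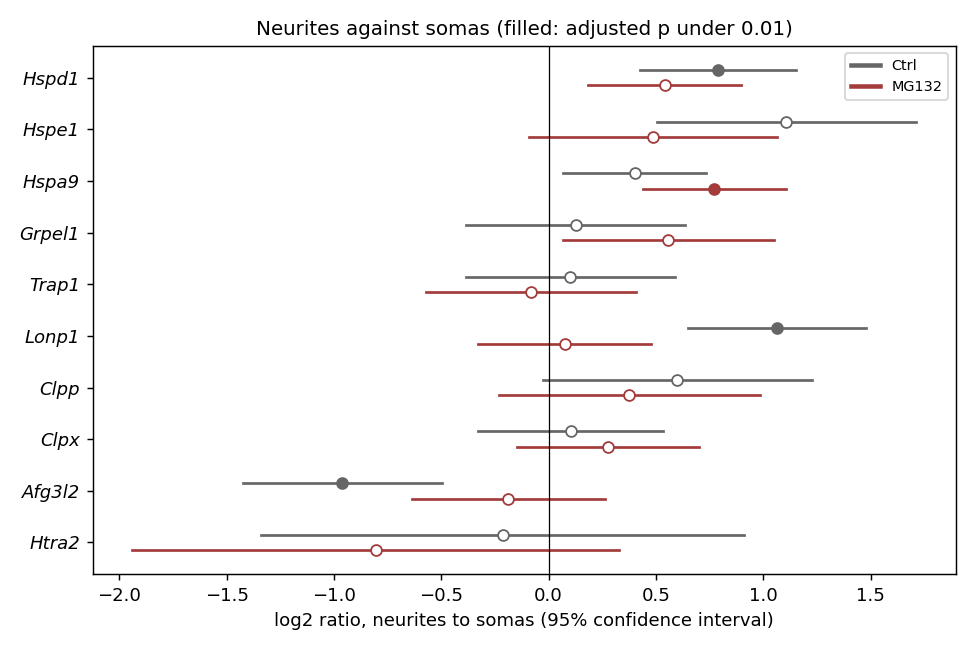
Log2 ratio of neurites to somas for each gene in Ctrl and after MG132, with 95% confidence intervals from edgeR and filled points at an adjusted p under 0.01. In Ctrl, Lonp1 (1.07) and Afg3l2 (-0.96) lie on opposite sides of 0, and after MG132 both are near it (0.07 and -0.19). On total counts the median of all genes shifts to -0.70 in Ctrl and -0.86 after MG132, and 5 and 7 of the 10 change sign.

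Other RNA separated the compartments strongly. The astrocyte markers Gfap and S100b were higher in Ctrl neurites than in Ctrl somas by log2 3.18 and 2.48, and Gja1 was lower by 1.08, so that 2 of 7 markers were higher and 1 lower. After MG132, 4 of 7 were higher and 1 lower, where 7.2% and 2.16% of all genes were. The nuclear RNAs Meg3 and Neat1 were lower in neurites by log2 values of -1.42 and -1.69 in Ctrl, and the 4 nuclear RNAs together summed to 1790 to 3930 CPM in Ctrl neurites against 5690 to 6940 in Ctrl somas. Their part in the compartment ratios of the 10 genes was not tested.

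A ratio of mRNAs within a library needs no scaling between libraries. Lonp1 to Afg3l2, per kilobase of transcript, was 0.602 to 0.719 in Ctrl somas and 1.88 to 4.29 in Ctrl neurites. It was 0.924 to 1.21 in MG132 somas and 1.19 to 1.30 in MG132 neurites. Ctrl somas thus lay below, and Ctrl neurites above, all MG132 libraries. This pair was chosen after its values had been seen, and an exact two-sided permutation test of 3 against 3 libraries gave p = 0.1 between compartments in Ctrl, the smallest such a design allows, and 0.32 after adjustment over 16 comparisons of ratios.

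Of the pairs that act together, Hspd1 to Hspe1 was 0.841 to 1.87 in Ctrl somas, 0.823 to 1.03 in Ctrl neurites, 0.926 to 1.49 in MG132 somas and 1.04 to 1.16 in MG132 neurites, so no library had one of the chaperonin mRNAs at more than 1.87 times the other per kilobase. Ctrl neurites lay just below MG132 neurites (exact permutation p = 0.1, 0.32 adjusted), and the other pairs of groups overlapped. Hspa9 exceeded Grpel1 by 11.4 to 22.4 times. Clpx to Clpp lay between 0.609 and 1.61, with Ctrl neurites at 0.676 to 0.800 below Ctrl somas at 0.859 to 1.47 (exact permutation p = 0.1, 0.32 adjusted) and below MG132 somas at 0.842 to 1.25.

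**Figure D4:**
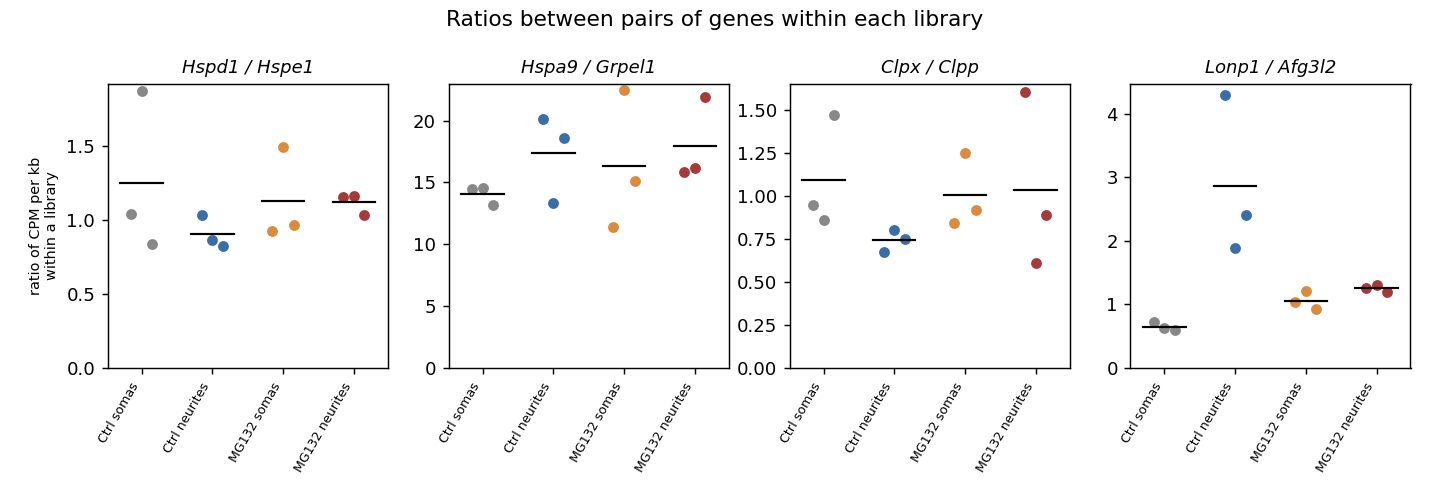
Ratio of the levels of paired genes within each library, in CPM per kb over CPM per kb, on linear axes that start at 0, with 3 points per group and a bar at the mean. Lonp1 to Afg3l2 separates Ctrl somas (0.602 to 0.719) from Ctrl neurites (1.88 to 4.29), while the other pairs overlap across most groups.

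The order of the 10 mRNAs in CPM per kilobase changed with treatment. In Ctrl somas Hspa9 led with 59.1 ± 3.53 (SD, n = 3), followed by Hspd1 at 26.0 ± 1.42, Hspe1 at 23.2 ± 8.14, Trap1 at 18.8 ± 3.13 and Afg3l2 at 15.3 ± 2.27, of which each overlapped the next from Hspd1 on. Lonp1, Clpx and Clpp came next at 9.94, 9.48 and 9.12 with overlapping libraries, then Grpel1 at 4.22 and Htra2 at 2.10. In Ctrl neurites Hspa9 (78.1) stood above Hspe1 (49.9) and Hspd1 (44.9), which overlapped, and Lonp1 (20.9) had moved ahead of Afg3l2 (7.83).

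After MG132 the 3 leading mRNAs were, as in both Ctrl groups, those of the chaperonin and of mortalin. MG132 somas had Hspd1 at 183.1 ± 33.6, Hspe1 at 170.8 ± 56.7 and Hspa9 at 152.1 ± 10.7 CPM per kilobase, and MG132 neurites 266.4 ± 33.4, 239.9 ± 45.6 and 259.8 ± 14.6. These 3 overlapped among themselves in both compartments and stood apart from Lonp1, the next gene, at 28.6 and 30.1. Trap1 moved from rank 4 in Ctrl somas to rank 9 in MG132 neurites, at 14.6 ± 4.57.

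Genes whose levels ran most like Hspd1 over the 12 libraries were sought among 10298 genes that averaged 5 CPM or more, by Pearson's r of log2(CPM + 1). The 5 highest were Psmd4 (a proteasome subunit, r = 0.990), Prkrip1 (0.988), Srxn1 (sulfiredoxin, 0.987), Hsp90aa1 (the inducible cytosolic HSP90, 0.987) and Nars (an aminoacyl-tRNA synthetase, 0.986). Among the other members, Hspa9 ranked 32nd (0.976) and Hspe1 44th (0.973), followed by Grpel1 at 373, Clpx at 511, Lonp1 at 775, Clpp at 1411 and Afg3l2 at 1958, while Trap1 stood at -0.57. Htra2 was below the level limit. The 12 points share 4 group means, so these values mostly describe the shared treatment.

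The wider lists are given by their counts, to be read against the shares of all genes above. Of 19 genes of the import machinery and the co-chaperones of mortalin, 18 were tested. In somas 1 was higher, Tomm70a, an import receptor (log2 0.71, edgeR adjusted p = 0.00311), and the median was 0.11. In neurites Tomm70a was higher (1.01) and Timm17b, a channel subunit, lower (-2.05), with a median of -0.07. With the replicate block 3 were higher in somas, and 2 were higher and 2 lower in neurites. Of 17 other mitochondrial proteases 0 were called in somas and 3 were higher in neurites, namely the inner membrane proteases Yme1l1 (0.73) and Parl (1.06) and the presequence peptidase subunit Pmpcb (0.78). The medians were 0.11 and 0.06. With the block 3 were higher in somas (Yme1l1, Parl and Xpnpep3) and 3 in neurites, where edgeR with the block called 14.1% and 13.6% of all genes higher and 11% and 11.4% lower.

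Mitochondrial content was followed by 18 genes, of which 1 was higher in somas, Tfam, which packages mitochondrial DNA (log2 0.94), and 1 lower, the outer membrane channel Vdac1 (-0.69). In neurites Tfam alone was called (1.05). With the block 1 was higher and 3 lower in somas, and 2 were higher in neurites. The medians of the list were -0.22 and 0.19, beside 1.04 and 1.25 for the 10 genes. Of 7 mitochondrial antioxidant enzymes 0 were called in either compartment, with medians of -0.34 and -0.25, and 0 were called with the block.

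Cytosolic heat shock genes, the other arm of the protein folding response, were higher for 10 of 10 genes in both compartments, with medians of 2.74 and 3.0. This list was chosen with earlier results of these data known, and the study reports several of its genes as raised by MG132. Its count and medians are therefore a description and no test. The largest values were those of the inducible HSP70 genes Hspa1a (log2 8.75 in somas and 9.15 in neurites) and Hspa1b (8.38 and 9.23), near-identical copies whose reads cannot be split with certainty. Hspb1 (5.28 and 4.58) and Dnajb1 (4.16 and 3.64) followed. Hspd1 and Hspe1 lay within the range of this list, 1.5 to 8.75 in somas and 1.81 to 9.23 in neurites. Of 8 chaperone genes of the endoplasmic reticulum 2 were higher in each compartment, Hspa5, which encodes BiP (0.93 and 0.99), and Dnajb9 (1.71 and 2.28), and the medians were -0.07 and 0.22. With the block 2 were higher and 2 lower in somas, and 3 were higher in neurites.

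**Figure D5:**
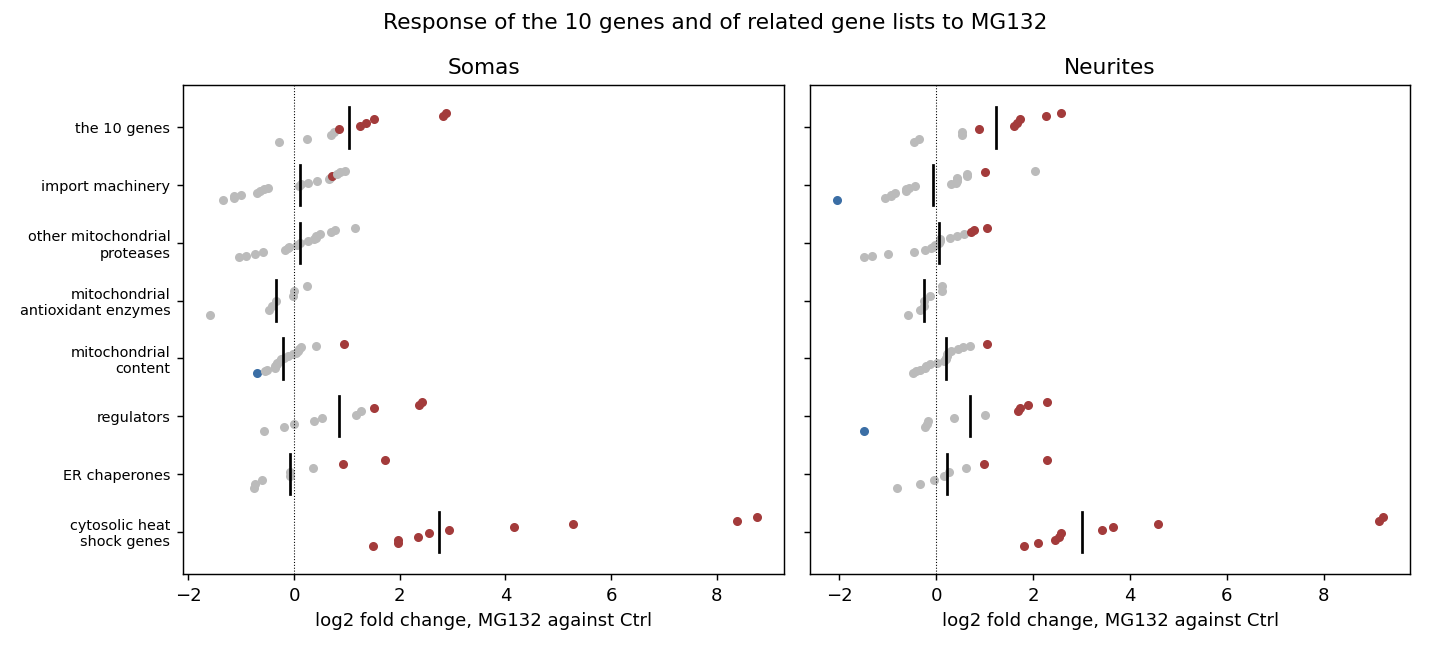
Log2 fold change after MG132 of each tested gene in the 10 and in related lists, in somas and neurites, with called genes in red (higher) or blue (lower), others in grey and a bar at the median of each list. The 10 genes (medians 1.04 and 1.25) lie between the cytosolic heat shock genes (2.74 and 3.0) and the other mitochondrial lists, whose medians lie from -0.34 to 0.19. All lists were chosen with earlier results of these data known.

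The 10 regulators differed among themselves. Atf4 rose by log2 2.42 in somas and 2.28 in neurites, and Ddit3, which encodes CHOP, by 2.36 and 1.74. The heat shock factor gene Hsf2 rose by 1.52 and 1.90, and Hsf1 was at 1.27 in somas (edgeR, adjusted p = 0.0166, and 0.00555 with the block) and rose by 1.69 in neurites. Cebpb (1.17 and 1.0), Nfe2l1 (0.54 and -0.20), Nfe2l2 (0.37 and 0.37), Sirt3 (-0.56 and -0.23) and Foxo3 (-0.18 and -0.17) passed in neither compartment without the block. With it Cebpb passed in both (edgeR, adjusted p = 0.00152 and 0.00294) and Nfe2l1 in somas (0.0053). That makes 6 of the 10 regulators higher in somas, where 3 were without it. In neurites 4 were higher and 1 lower without the block, and 5 and 1 with it. The block called 14.1% of all genes higher in somas and 13.6% in neurites, against 9.52% and 9.76% without it. Lower in neurites were 11.4% and 5.67%.

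Atf5, whose product has been described as a sensor of mitochondrial import, went another way. Its level was 20.8 ± 1.83 CPM (SD, n = 3) in Ctrl somas, 207.0 ± 66.9 in Ctrl neurites, 21.0 ± 4.55 in MG132 somas and 73.8 ± 18.1 in MG132 neurites. It was thus higher in neurites than in somas by log2 3.31 in Ctrl (edgeR, adjusted p = 1.83e-06) and 1.82 after MG132 (adjusted p = 0.000169). With MG132 it fell by 1.48 in neurites (log2 -1.48 ± 0.25, adjusted p = 0.00048), and in somas its log2 fold change was 0.00 with an interval of -0.53 to 0.54. The difference between these responses, -1.49 ± 0.35, had an adjusted p of 0.328 in edgeR and of 0.00684 with the replicate block (-1.46 ± 0.26). Nfe2l1, a regulator of proteasome genes, was also higher in neurites (2.49 in Ctrl and 1.76 after MG132), as was Ddit3 in Ctrl (1.37). After MG132, Ddit3 was at 0.75 and Sirt3 at 1.22, which passed with the block only (edgeR, adjusted p = 0.00908 and 0.00458).

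Between compartments the wider lists are read against the 6.3% of all genes that were higher in neurites in Ctrl and the 7.2% after MG132. Tomm7 was higher in neurites in Ctrl (log2 1.44) and after MG132 (1.30), and Tomm20 in Ctrl (0.98), among 18 import genes. Spg7, the paraplegin partner of Afg3l2, was higher in neurites after MG132 (1.45) among 17 proteases, of which 0 were called in Ctrl (1 higher with the block). Of the 7 antioxidant enzyme genes Prdx5 was higher in both (1.28 and 1.51), and with the block 4 were higher in Ctrl and 2 after MG132. Of the 18 content genes 0 were called in either, with medians of 0.15 and 0.47, and with the block 1 was higher in Ctrl and 5 after MG132. The block called 10% of all genes higher in Ctrl neurites and 11.1% in MG132 neurites, and 4.67% and 6.42% lower. Calr was higher (1.19) and Dnajb1 lower (-0.73) in MG132 neurites than in MG132 somas. With the block, 2 of the 10 cytosolic heat shock genes were higher and 3 lower there, and 2 of the 8 chaperone genes of the endoplasmic reticulum were higher and 1 lower.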

How the data were processed

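Whole-number read counts per Entrez gene, as deposited, were used for 12 libraries. The authors made them on Galaxy by trimming with Trimmomatic 0.38.0, alignment to mm10 with STAR and counting with featureCounts 2.0.1 at default parameters, and tested with DESeq2 (wrapper 2.11.40.7). The counts carry no normalization, and the strand setting is not given beyond the defaults. RefSeq symbols were found for 25275 of 27179 IDs (93.0%), with GRCm38.p6 positions, promoter windows from RefSeq and GENCODE M21 transcripts for lengths and shared 75-base windows.

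In R 4.3.3, edgeR 4.0.16 filtered genes (filterByExpr by group), scaled with TMM factors and fitted 1 quasi-likelihood model of 4 group means. P-values were adjusted over 14185 genes by Benjamini-Hochberg, with calls at 0.01. SE is the absolute log2 fold change over the square root of F. The members and lists were chosen with earlier results of these data known. All 10 members were named, and from other lists the called genes with the largest changes, at most 4, and every regulator. Likeness used a pseudocount of 1 CPM.

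The labels number replicates 1 to 3 in each group. Same-numbered libraries deviated together from their group means (r = 0.239 to 0.332 in 12 of 12 pairs), and dates in the library names are shared within a number except for 1 MG132 neurites library, so the numbers were taken to pair the samples. No source says whether replicates are separate cultures beyond this, so p-values measure the spread between these libraries. Of 66 pairs of libraries 0 were identical, and libraries of a group differed beyond counting noise (chi-square per degree of freedom 25.4 to 233). In somas, genes had a median SE of 0.357 on the log2 scale. Alternatives were DESeq2 1.42.0, DESeq2 size factors, total counts with and without the 10 most abundant genes, other filters and thresholds, only the groups compared, the replicate block, and each library left out.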

Additional observations from a re-analysis of the deposited data

Results flagged for a closer look

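The MG132 response of Atf5 differed between neurites and somas by log2 -1.46 with the replicate number as a block (edgeR, adjusted p = 0.00684, 3 libraries per group), which is what set it apart for a closer look. Without the block the same difference was -1.49 and did not pass (adjusted p = 0.328). Its levels were 207.0 CPM in Ctrl neurites and 73.8 CPM in MG132 neurites. The 7 astrocyte markers there summed to 17600 to 23800 CPM and 8150 to 18900 CPM, ranges that overlap. Most of the sum was Gfap, with means of 17790 and 11270 CPM, which was not called (edgeR, adjusted p = 0.154). Of the 7 markers, 2 were called lower after MG132 in neurites, where 5.67% of all genes were. The part of astrocyte RNA in the difference was not tested.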

How the results depend on the processing

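The MG132 responses of Hspd1, Hspe1, Hspa9 and Lonp1 in somas and of Hspd1, Hspe1, Hspa9, Grpel1 and Afg3l2 in neurites kept direction and call in each alternative at a threshold of 0.01 without a limit on the fold. A log2 limit of 1.7 left 2 members higher in somas, 3 in neurites and 0 in either comparison of compartments, higher or lower. Over all genes that limit left 301 higher and 48 lower in Ctrl neurites, and 290 and 72 in MG132 neurites, than in somas. Grpel1 in somas was lost on total counts (adjusted p = 0.0245). Afg3l2 in somas was lost in 5 settings other than leaving out a library (adjusted p 0.0105 to 0.0838), and Clpx in neurites in 3 (0.0101 to 0.122). The count of members higher in neurites than in somas in Ctrl fell from 2 to 0 on total counts, on total counts without the 10 most abundant genes and with only the groups compared, and that of members lower from 1 to 0 in the last. Over all genes those higher fell from 894 to 179, 525 and 697, and those lower from 185 to 123 in the last. Hspe1 joined the higher members in Ctrl with DESeq2, the replicate block or an adjusted p under 0.05. Genes higher in all then numbered 1250, 1425 and 1452. After MG132 the count of members higher went from 1 to 0 on both totals, and to 2 with DESeq2, the replicate block or an adjusted p under 0.05. Over all genes it went from 1021 to 138 and 612, and to 1452, 1572 and 1615. Leaving out a library gave 0 to 1 members higher and 0 to 1 lower in Ctrl, and 0 to 1 higher after MG132. Over all genes those fits called 578 to 810 higher and 83 to 173 lower in Ctrl, and 653 to 875 higher after MG132.

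On total counts the log2 ratio of neurites to somas changed sign in Ctrl for Hspa9 (-0.27), Trap1 (-0.59), Clpp (-0.11), Clpx (-0.58) and Grpel1 (-0.51), and after MG132 for Hspd1 (-0.26), Hspe1 (-0.35), Hspa9 (-0.0201), Lonp1 (-0.74), Clpp (-0.37), Clpx (-0.54) and Grpel1 (-0.22). Without the 10 most abundant genes it did so in Ctrl for Hspa9 (-0.0207), Trap1 (-0.32), Clpx (-0.31) and Grpel1 (-0.28), and after MG132 for Lonp1 (-0.26) and Clpx (-0.0541). These settings move the median of all genes by their construction. Leaving out a library changed the sign of uncalled values, which ranged from -0.00037 to 0.57 for Htra2 in somas, in Ctrl from -0.0946 to 0.18 for Trap1, -0.00982 to 0.24 for Grpel1 and -0.54 to 0.0291 for Htra2, after MG132 from -0.27 to 0.13 for Trap1, and in the difference of responses from -0.30 to 0.0455 for Trap1 and -0.42 to 0.0545 for Clpp. Among the 10 genes the replicate block ended 0 calls and added those of Clpx, Lonp1, Hspe1 and Hspd1, given with the results, as are the wider lists with the block. Htra2, the least abundant of the 10, had the least precise values, with an SE of 0.52 in somas against 0.16 for Hspa9.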
